A study of Mus musculus with 22 samples.

Results

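The genes described here mark B and T lymphocytes in mouse inguinal fat: 30 genes listed by name as B cell, T cell or shared lymphocyte genes, of which 28 were measured. Members were chosen by gene symbol, as the probe sets whose only symbol is a listed gene, and each of the 28 had a single such probe set among the 22180 genes read. They comprise 11 B cell genes, 14 T cell genes and 3 genes listed for both cell types or for other lymphocytes, called shared genes below. Lck and Tcf7, the other two listed genes, had no entry in the array annotation used here and were not analysed.

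The study measured inguinal white adipose tissue on Affymetrix arrays, with 1 male mouse per array and 22 arrays in 4 groups. The groups were PPARα-null mice at 5 °C (n = 5), wild-type mice at 5 °C (n = 5), PPARα-null mice at 28 °C (n = 6) and wild-type mice at 28 °C (n = 6). All were 3 to 4 months old on a C57BL/6J background, and the null allele is carried in the whole body, so that fat and lymphocytes both lack the receptor. Every mouse first spent 5 weeks at 28 °C. The cold groups were then kept at 21 °C for 1 week and at 5 °C for 10 days, while the others stayed at 28 °C. The study housed 10 mice per group, 40 in all, and the sources used here do not say how those on arrays were picked.

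B lymphocytes carry an antigen receptor whose signal passes through the Cd79a and Cd79b chains, and T lymphocytes carry one whose signal passes through the Cd3 chains. Both cell types recirculate through lymph nodes, where they fill separate zones, the follicles and the paracortex. In the mouse, the inguinal fat pad encloses a lymph node, and fat itself holds scattered lymphocytes, so RNA of a whole pad can include both sources. The labels do not say whether the node was removed or how much of it was in each piece of tissue.

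The arrays resembled each other as a whole. Pairwise correlations over all genes lay between 0.966 and 0.990, and array medians lay between 4.16 and 4.25 on the log2 scale. Fabp4, the fatty acid carrier of adipocytes, read 12.46 to 12.76 on all 22 arrays, and Ucp1, the uncoupling protein of thermogenic fat, was higher at 5 °C by 6.98 log2 units averaged over the genotypes (limma adjusted p = 1.41e-17). The Ppara probe set averaged, with SD, 6.30 ± 0.56 (null) and 6.59 ± 0.34 (wild type) at 5 °C, n = 5 each, and 4.88 ± 0.43 (null) and 4.72 ± 0.23 (wild type) at 28 °C, n = 6 each. Null minus wild type for Ppara was −0.29 ± 0.24 at 5 °C and 0.16 ± 0.22 at 28 °C (SE, limma adjusted p = 0.895 and 0.956), so its signal is no check on which mice were null.

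The promoters of 3 members are shown because these genes stand for the B cell receptor, its inhibitory partner and the T cell receptor, whose signals moved together across the arrays. Sequences are from RefSeq on GRCm38.p6 and run 5′ to 3′ on the gene's strand, with 250 bases before the annotated start and 50 after it. Cd79a is at chr7:24897247-24897546 on the plus strand, Cd22, an inhibitory co-receptor of B cells, at chr7:30878979-30879278 on the minus strand, and Cd3e at chr9:45009562-45009861 on the minus strand. Capitals mark matches to the motifs named next.
Cd79a: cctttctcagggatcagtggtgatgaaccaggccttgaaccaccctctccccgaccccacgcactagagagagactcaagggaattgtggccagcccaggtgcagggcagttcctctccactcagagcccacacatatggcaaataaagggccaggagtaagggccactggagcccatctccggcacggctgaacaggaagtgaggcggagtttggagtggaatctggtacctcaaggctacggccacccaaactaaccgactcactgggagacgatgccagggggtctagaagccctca
Cd22: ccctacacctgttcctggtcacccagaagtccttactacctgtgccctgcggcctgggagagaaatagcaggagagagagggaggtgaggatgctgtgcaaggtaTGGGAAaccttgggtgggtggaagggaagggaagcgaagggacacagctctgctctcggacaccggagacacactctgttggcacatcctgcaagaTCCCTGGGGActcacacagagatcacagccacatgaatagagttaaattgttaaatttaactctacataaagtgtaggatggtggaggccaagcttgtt
Cd3e: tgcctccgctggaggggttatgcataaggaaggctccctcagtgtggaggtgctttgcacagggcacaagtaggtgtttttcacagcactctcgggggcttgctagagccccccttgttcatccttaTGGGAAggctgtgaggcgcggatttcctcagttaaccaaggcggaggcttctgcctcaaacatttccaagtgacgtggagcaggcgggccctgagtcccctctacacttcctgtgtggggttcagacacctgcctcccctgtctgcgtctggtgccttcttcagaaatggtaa

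Of the 28 measured genes, 19 matched the promoter table, with 23 promoters. Each motif was searched on both strands. The Ikaros core TGGGAA was present in 10 of these 23 promoters, from 9 genes, against 25.6% of all 32851 promoters. The EBF1 palindrome was present in 1, that of Cd22, against 0.904% of all. The octamer ATGCAAAT was present in 0 of 23, against 1.74% of all, the RUNX core TGTGGT in 4, against 16.8%, and the TCF core CTTTGAA in 2, against 5.14%. The TATAAA box was present in 3, against 13.6%. In the sequences above, the Cd22 promoter holds the EBF1 letters at position −49 and the Ikaros letters at −145, the Cd3e promoter holds the Ikaros letters at −123, and the Cd79a promoter holds none of the 6 motifs. These are letter matches only. Several members also lie side by side in the genome, with 0 protein-coding genes between Cd3g, Cd3d and Cd3e on chromosome 9, between Cd8b1 and Cd8a on chromosome 6, and between Cd5 and Cd6 on chromosome 19.

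The lymphocyte genes varied between single mice far more than most genes did. Cd79a, a signalling chain of the B cell receptor, read 5.41, 6.90, 8.96, 8.47 and 4.99 in the 5 null mice at 5 °C and 7.80, 5.58, 5.43, 7.23 and 7.50 in the 5 wild-type mice at 5 °C (log2 values). At 28 °C its lowest, median and highest values were 5.79, 7.88 and 10.16 in null mice and 5.68, 7.15 and 9.46 in wild-type mice. Every group thus held pads below and above the mean of 7.23 over all arrays, and all 4 groups overlapped. The highest value of wild-type mice at 5 °C, 7.80, was below the highest of each other group. From the lowest to the highest array, the range of Cd79a was 5.16 log2 units, or 35.9-fold.

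The partner chain Cd79b read 5.24, 6.36, 7.72, 7.55 and 4.94 in null mice at 5 °C and 7.23, 5.17, 5.33, 6.25 and 6.59 in wild-type mice at 5 °C. At 28 °C the lowest, median and highest readings of Cd79b were 5.29, 7.26 and 9.16 in null mice and 5.21, 6.72 and 8.73 in wild-type mice. It followed Cd79a from pad to pad over a narrower range of 18.6-fold.

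Further B cell members covered different levels of the scale. Cr2 lay between 2.30 and 7.32 over the 22 arrays (32.3-fold), Fcer2a between 4.22 and 8.67 (21.8-fold) and Cd22 between 3.91 and 8.55 (24.9-fold). These 3 genes mark mature, resting B cells, and each was highest in null mouse 1 at 28 °C. By group, the lowest, median and highest Cr2 signals were 2.30, 4.20 and 6.11 in null and 2.67, 4.40 and 5.60 in wild-type mice at 5 °C, and 2.70, 5.55 and 7.32 in null and 3.24, 4.82 and 6.63 in wild-type mice at 28 °C. Fcrla, an Fc receptor-like protein of B cells, lay between 3.40 and 6.38 (7.88-fold), and Blk, a kinase of the B cell receptor, between 3.66 and 7.27 (12.2-fold).

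The B cell transcription factors varied with the other B cell members. Pax5, which keeps cells committed to the B lineage, read 3.63, 4.28, 5.48, 5.53 and 3.95 in null mice at 5 °C and 5.07, 3.73, 3.93, 4.61 and 5.28 in wild-type mice at 5 °C. The lowest, median and highest readings of Pax5 at 28 °C were 3.76, 5.38 and 7.03 in null mice and 3.45, 4.83 and 6.43 in wild-type mice. Null mice 3 and 4 at 5 °C were its high pads in the cold, and null mouse 1 its highest at 28 °C. Spib lay between 2.46 and 6.63 (18.0-fold), Pou2af1, the coactivator of octamer factors, between 3.52 and 6.59 (8.38-fold), and Ikzf3, a factor of both lineages, between 2.99 and 7.62 (24.8-fold).

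Ms4a1 encodes CD20, a surface protein of mature B cells. It read 3.13, 4.40, 6.87, 6.16 and 2.78 in null mice at 5 °C and 5.72, 3.64, 3.60, 4.62 and 5.50 in wild-type mice at 5 °C. Its lowest, median and highest values at 28 °C were 3.91, 5.85 and 7.88 in null mice and 3.42, 5.04 and 7.48 in wild-type mice. The pads that were high for Cd79a were also high for Ms4a1.

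The T cell genes were high in many of the same pads, though not in the same order. Cd3e, a chain of the T cell receptor complex, read 3.98, 5.20, 7.41, 6.85 and 4.61 in null mice at 5 °C and 5.58, 4.66, 5.37, 6.01 and 6.57 in wild-type mice at 5 °C. Its lowest, median and highest values at 28 °C were 5.05, 6.45 and 9.05 in null mice and 5.01, 6.13 and 8.12 in wild-type mice. Null mice at 5 °C numbered 3 and 4 and null mouse 1 at 28 °C were high for Cd3e as they were for Cd79a, and the 4 groups again overlapped.

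The coreceptors of helper and cytotoxic T cells were both present. Cd4 read 3.24, 4.58, 6.98, 6.20 and 3.98 in null mice at 5 °C and 5.82, 3.92, 4.04, 5.20 and 5.92 in wild-type mice at 5 °C. The lowest, median and highest readings of Cd4 at 28 °C were 4.30, 5.34 and 7.40 in null mice and 3.87, 5.66 and 7.71 in wild-type mice. The 4 groups overlapped for Cd4. Cd8a read 4.44, 4.29, 6.51, 5.75 and 4.03 in null mice at 5 °C and 4.68, 4.30, 4.22, 4.71 and 5.45 in wild-type mice at 5 °C. For Cd8a the corresponding readings at 28 °C were 3.99, 5.13 and 7.63 in null mice and 4.32, 5.14 and 7.09 in wild-type mice. Both genes were high in null mice 3 and 4 at 5 °C and low in null mouse 5 at 5 °C. The partner chain Cd8b1 lay between 3.65 and 7.49 over the 22 arrays (14.4-fold). Its lowest, median and highest signals were 3.79, 4.27 and 6.26 in null and 3.83, 4.59 and 5.53 in wild-type mice at 5 °C, and 3.65, 5.25 and 7.49 in null and 4.23, 5.18 and 7.04 in wild-type mice at 28 °C.

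Among the other T cell receptor chains, Cd3g lay between 3.82 and 8.39 (23.8-fold) and Cd3d between 2.81 and 6.32 (11.4-fold). The lowest, median and highest Cd3g signals were 3.82, 5.00 and 7.25 in null and 4.63, 5.89 and 6.18 in wild-type mice at 5 °C, and 5.53, 6.27 and 8.39 in null and 4.65, 6.06 and 8.00 in wild-type mice at 28 °C. For Cd3d these were 3.08, 3.65 and 5.22 in null and 3.23, 3.85 and 4.41 in wild-type mice at 5 °C, and 3.62, 3.94 and 6.32 in null and 2.81, 4.14 and 5.53 in wild-type mice at 28 °C. For both chains the groups overlapped, and Cd3d was the dimmer. The signalling proteins below the receptor had smaller ranges, with Lat between 4.06 and 7.27 (9.23-fold) and Zap70 between 3.45 and 5.66. The surface regulators Cd5 and Cd6, which dampen receptor signals, lay between 3.88 and 7.20 (9.97-fold) and between 3.97 and 6.23 (4.79-fold). Cd2 lay between 3.71 and 6.61 (7.45-fold), Cd28 between 3.83 and 6.07 (4.71-fold), and Bcl11b between 3.58 and 6.19 (6.13-fold). The Cd3 chains and coreceptors thus had wider ranges than these signalling genes and regulators, a description that was not tested. Cd27, another T cell member, had a range of 15.2-fold, wider than those of Cd3d, Cd8a and Cd8b1. Zap70, Cd28 and Bcl11b averaged 4.42, 4.48 and 4.50 over all arrays, against 6.10 for Cd3e and 4.06 for Cd3d. The part of signal level in these ranges was not tested.

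Ltb, a lymphotoxin chain made by both B and T cells and needed for lymph node formation, read 4.60, 5.41, 7.50, 6.97 and 4.30 in null mice at 5 °C and 6.18, 5.14, 5.30, 6.03 and 6.35 in wild-type mice at 5 °C. Its lowest, median and highest values at 28 °C were 5.32, 6.67 and 8.74 in null mice and 5.23, 6.22 and 8.23 in wild-type mice. The null group at 5 °C spanned more than the wild-type group at 5 °C did, which was not tested.

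Il7r read 3.85, 4.02, 7.22, 6.33 and 4.24 in null mice at 5 °C and 5.18, 3.73, 4.23, 5.45 and 6.07 in wild-type mice at 5 °C. The lowest, median and highest readings of Il7r at 28 °C were 3.92, 5.76 and 8.05 in null mice and 4.15, 5.38 and 7.64 in wild-type mice. Like Ltb, it was high in null mice 3 and 4 at 5 °C and highest in null mouse 1 at 28 °C.

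**Figure D1:**
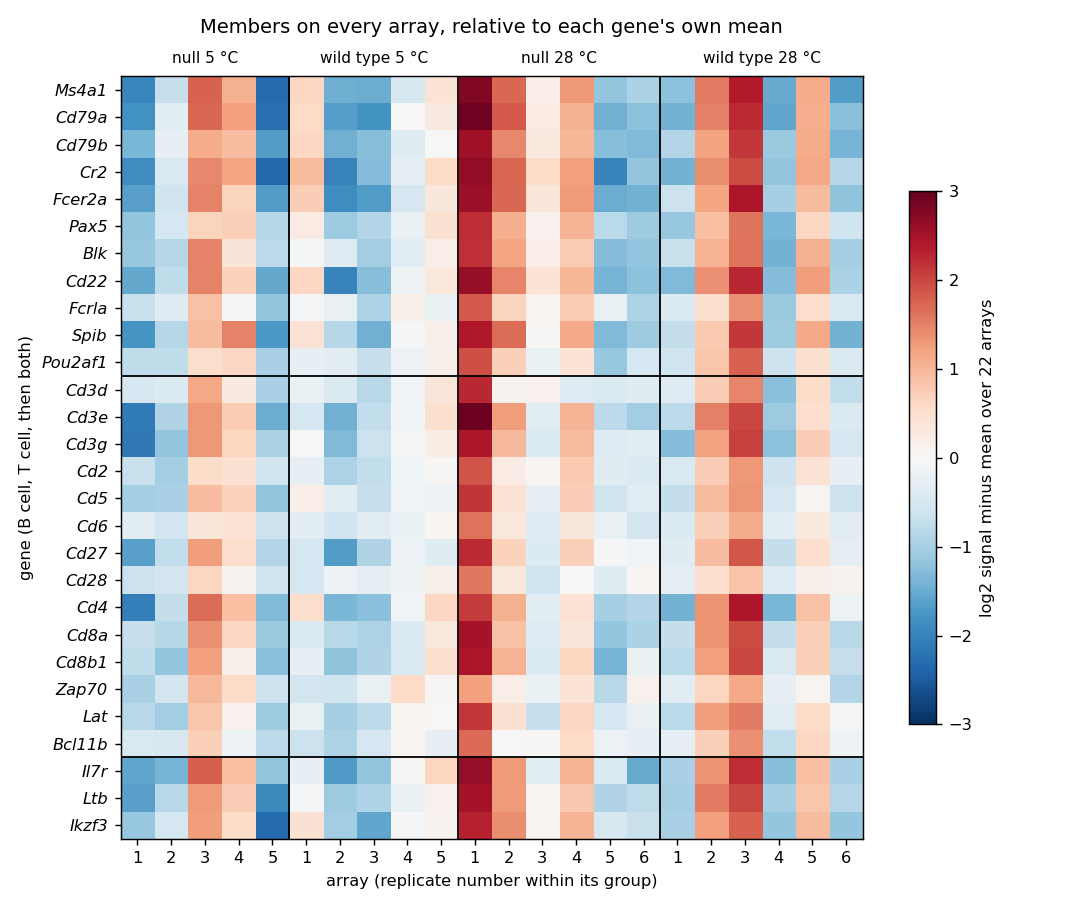
Log2 deviation of each of the 28 lymphocyte genes (down the page) from its own mean over the 22 arrays (across, by group). Columns change colour as a whole: null mouse 1 at 28 °C and wild-type mouse 3 at 28 °C are high for nearly all genes, and low columns occur in every group.

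Across the 28 genes, the range over arrays was 2.20 to 5.16 log2 units, or 4.60-fold for Zap70, a T cell receptor kinase, to 35.9-fold for Cd79a, with a median of 14.8-fold. The SD within groups (the residual SD of the 4-group fit) was 0.557 to 1.61, with a median of 1.12, against a median of 0.216 for all 22180 genes. All 28 lay above the 95th percentile of all genes, 23 lay above the 99th, and 23 were among the 200 genes with the largest residual SD. B cell genes had a median residual SD of 1.35, the shared genes 1.23 and T cell genes 0.875. Il7r, the interleukin-7 receptor, had the largest residual SD of the shared genes at 1.39, and Cd28, a T cell costimulator, the smallest of all 28 at 0.557.

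The groups accounted for little of this spread. The share of a gene's sum of squares that lay between the 4 groups was 4.05% to 24.7%, with a median of 9.74%, against a median of 20.8% for all genes. Cd27, a costimulatory receptor, had the highest share, and Zap70 the lowest. After group means were subtracted, the first principal axis carried 93.2% of the variance of the 28 genes and the second 2.50%, and all 28 had the same sign on the first. The 28 genes are therefore not independent readings of a condition.

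**Figure D2:**
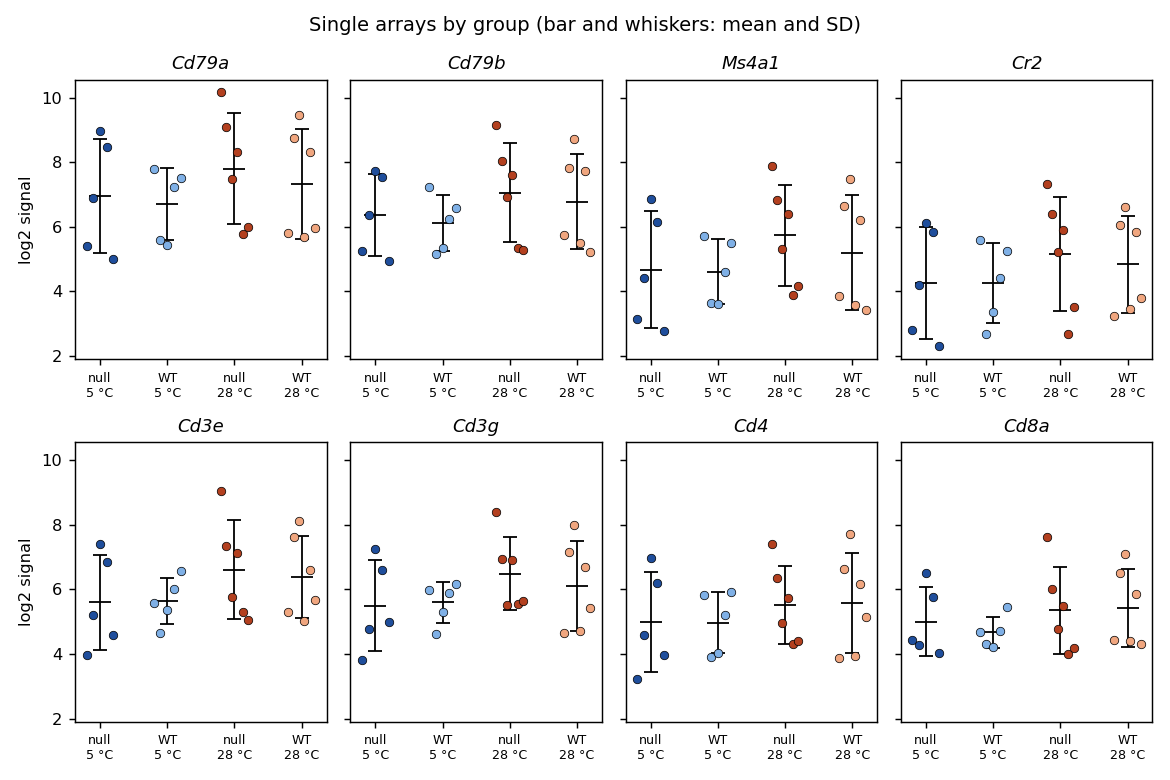
Log2 values on single arrays for 4 B cell and 4 T cell genes, by group, with the group mean and SD. Points of all 4 groups overlap for each gene.

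Single pads could be ordered by the mean deviation of the 28 genes from their own means. The highest was null mouse 1 at 28 °C, at 2.26 log2 units, which had the highest value of 27 of the 28 genes. Wild-type mouse 3 at 28 °C was next at 1.80 and held the top value of Cd4, the coreceptor of helper T cells. These 2 pads were the top pair for all 28 genes. The lowest were null mice 5 and 1 at 5 °C, at −1.29 and −1.25, which held the lowest value of 10 and 6 genes.

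By group, the mean deviation ran between −1.29 and 1.15 (median −0.73) in null mice at 5 °C and between −1.07 and 0.20 (median −0.14) in wild-type mice at 5 °C. It ran between −0.85 and 2.26 (median 0.34) in null mice at 28 °C and between −0.95 and 1.80 (median −0.0026) in wild-type mice at 28 °C. Groups overlapped in this summary, as they did in each of the 28 genes in each comparison of temperature within a genotype and of genotype within a temperature. Overlap was not counted over all genes, so it is not read as a trait of these 28. The lowest pad of a group lay between −1.29 and −0.85, and the highest between 0.20 and 2.26.

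Some members were dim in the low pads. The 95th percentile of 1105 olfactory receptor genes, taken as a background level and chosen after the data were seen, was 3.72 to 3.97 on single arrays. Of the 28 genes, 9 were above it on all 22 arrays: Cd79a, Cd79b, Fcer2a, Cd22, Cd3e, Cd6, Cd8a, Lat and Ltb. Cd3d, a chain of the T cell receptor complex, was above it on 10 arrays, Spib, a B cell transcription factor, on 12, and Cr2, the complement receptor of B cells, on 14. By array, the count of members above it was between 14, in null mouse 1 at 5 °C, and 28. Ranges and differences of the dimmer genes are compressed at the low end on such arrays.

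Pairs of members were compared from pad to pad. Over 14 pairs of genes tested, with a permutation test of 100000 resamples and Benjamini-Hochberg adjustment over the pairs, 1e-05 was the smallest p the resamples can give. Cd79a and Cd79b had Pearson's r = 0.987 and Spearman's rho = 0.949 over 22 arrays (permutation p = 1e-05 for both, adjusted 1.6e-05), and r = 0.983 without the 2 arrays farthest from the median. Cd8a and Cd8b1, the coreceptor chains of cytotoxic T cells, had r = 0.972 and rho = 0.912 (permutation p = 1e-05 for both, adjusted 1.6e-05), and r = 0.949 without the 2 farthest. High pads for one chain were thus mostly high for the other.

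The 2 lineages also moved together. Cd79b and Cd3e had r = 0.924 and rho = 0.907 (permutation p = 1e-05 for both, adjusted 1.6e-05). The r was 0.884 without the 2 farthest arrays, 0.922 with group means subtracted, 0.963 within null mice at 28 °C and 0.939 within wild-type mice at 28 °C (n = 6 each). Ms4a1 and Cd3g had r = 0.933 and rho = 0.924 (permutation p = 1e-05 for both, adjusted 1.6e-05), and r = 0.905 without the 2 farthest. Pads high for the B cell gene were thus mostly high for the T cell gene.

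Ordered Cd79a values had their widest gap, of 0.91, between 5.99 and 6.90, with 13 arrays above it and 9 below, a division made after the values were seen, and r on either side is over a narrower range of signal than r over all arrays. The next widest gap was 0.70, so the 2 sides are not clearly separate clusters. The arrays above it were 3 null and 3 wild-type mice at 5 °C, and 4 null and 3 wild-type mice at 28 °C. Among these 13, Cd79b and Cd3e had r = 0.895, and among the other 9, r = 0.386. For Cd79a and Cd79b, r was 0.974 above the gap and 0.541 below it. For Cd3d and Cd3e it was 0.843 above and −0.042 below, where Cd3d was near the olfactory receptor level.

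Among B cell genes and T cell genes taken as 2 means, the balance shifted by less than the shared level. The mean deviation of B cell genes minus that of T cell genes was between −0.61 and 0.38 in null mice at 5 °C, between −0.56 and 0.67 in wild-type mice at 5 °C, between −0.71 and 0.81 in null mice at 28 °C and between −0.60 and 0.47 in wild-type mice at 28 °C. Groups overlapped here too. T cell genes also had the smaller range, and the part of that in the difference was not tested.

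**Figure D3:**
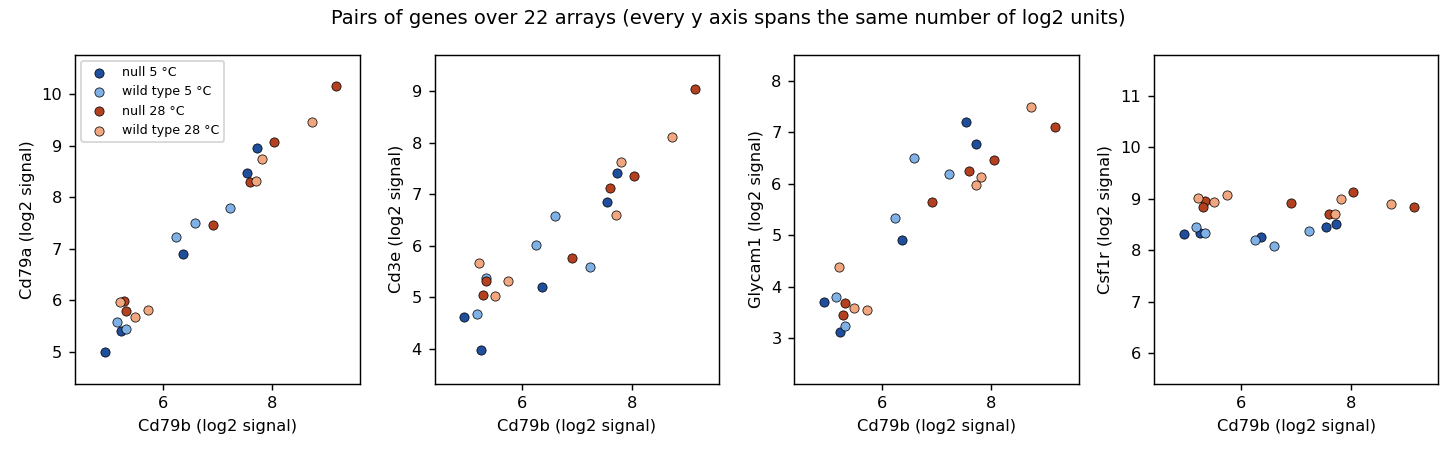
Log2 values of Cd79a, Cd3e, Glycam1 and Csf1r (vertical axes) against Cd79b (horizontal axis), with 1 point per array and colours for the 4 groups. Points run along a line for Cd3e (r = 0.924 over 22 arrays), rise together for Glycam1 (r = 0.928), and show no line for Csf1r (r = 0.213).

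Genes of lymph node structure were set beside the members. Glycam1, a ligand made by the high endothelial venules through which lymphocytes enter a node, had r = 0.928 and rho = 0.824 with Cd79b (permutation p = 1e-05 for both, adjusted 1.6e-05). The r was 0.921 without the 2 farthest arrays and 0.945 with group means subtracted. Above the Cd79a gap it was 0.775, and below it −0.22, each over that narrower range. Glycam1 had a residual SD of 1.59 and a range of 20.7-fold, between 3.13 in null mouse 1 at 5 °C and 7.50 in wild-type mouse 3 at 28 °C, so that it varied about as widely as the B cell genes.

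Cxcl13, the chemokine that draws B cells into follicles, had r = 0.734 and rho = 0.737 with Cd79b (permutation p = 0.00016 and 0.00012, adjusted 0.00022 and 0.00017), and r = 0.650 without the 2 farthest. Of 16 listed genes of node stroma, 11 were measured, and 2 of them had r of at least 0.9 with Cd79a after group means were subtracted. The 11 had a median r of 0.44, between −0.46 and 0.96. Their mean deviation ran between −0.52 and 0.32 in null mice at 5 °C, between −0.37 and −0.042 in wild-type mice at 5 °C, between −0.27 and 0.58 in null mice at 28 °C and between −0.18 and 0.44 in wild-type mice at 28 °C. The part of node tissue in the spread of the 28 genes was not tested.

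A macrophage gene and an adipocyte gene were compared in the same way. Csf1r, the growth factor receptor of macrophages, had r = 0.213 and rho = 0.230 with Cd79b (permutation p = 0.34 and 0.30, adjusted 0.39 and 0.35), r = 0.108 without the 2 farthest and −0.10 with group means subtracted. Adipoq, the adipocyte hormone adiponectin, had r = 0.085 and rho = 0.145 with Cd79b (permutation p = 0.70 and 0.52, adjusted 0.70 and 0.56) and r = −0.40 with group means subtracted. Neither relation passed the test. On the 2 sides of the Cd79a gap, each with both temperatures, r of Cd79b with Csf1r was 0.708 above and 0.637 below. With Adipoq it was 0.435 and 0.590. Group means were not subtracted there, and 86.1% of the sum of squares of Csf1r and 82.9% of that of Adipoq lay between groups. Within null and wild-type mice at 28 °C, r of Cd79b was −0.0032 and −0.55 with Csf1r, and −0.038 and −0.59 with Adipoq. The part of temperature in the values on the 2 sides was not tested.

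The genes whose pattern was most like that of Cd79a were ranked by r over 22 arrays after group means were subtracted, as a description. Btla, an inhibitory receptor of lymphocytes, was first at 0.991, followed by Ms4a1 at 0.990, Cd79b at 0.987, Tnfrsf13c, the BAFF receptor, at 0.984, and Cr2 at 0.984. Among the 30 genes ranked highest, 10 were members. In all, 119 genes reached 0.9, 19 of the other 27 members among them. The lowest member was Cd28 at 0.761. Glycam1 stood at 0.964, Ccr7, the receptor that guides lymphocytes to nodes, at 0.954 and Ptprc, the CD45 antigen of all leukocytes, at 0.952.

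Fitted means of all 28 genes were lower at 5 °C than at 28 °C in both genotypes. Of all genes, 50.6% were lower at 5 °C in null mice and 48.5% in wild-type mice. The 28 genes moved together across pads, so their shared direction is not 28 separate results. Their differences were small against the spread between pads. Averaged over genotypes, the difference of 5 °C minus 28 °C was −0.93 to −0.25 log2 units, with a median of −0.68, against a median of 0.0075 over all genes. None of the 28 passed limma's test (adjusted p under 0.05 over all 22180 genes), while 24.8% of all genes were called, 13.1% as lower. Unadjusted p was under 0.05 for 4 of the 28, all T cell genes, against 34.2% of all genes. In a whole pad, fewer cells of a type and less RNA per cell cannot be told apart. The p-values set each difference against the spread between mice, since each array is 1 mouse. That spread includes any differences in the piece of tissue taken.

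Those 4 genes were Cd27, Bcl11b, Cd2 and Lat. Cd27 read 3.41, 4.30, 6.30, 5.58 and 4.17 in null mice at 5 °C and 4.54, 3.36, 4.14, 4.87 and 4.68 in wild-type mice at 5 °C. Its lowest, median and highest values at 28 °C were 4.62, 5.37 and 7.28 in null mice and 4.34, 5.14 and 6.90 in wild-type mice. The temperatures overlapped in both genotypes, and the averaged difference was −0.93 (95% interval −1.70 to −0.15, limma adjusted p = 0.0772).

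Bcl11b, a transcription factor of T cell identity, averaged 4.26 ± 0.57 in null mice at 5 °C and 4.81 ± 0.74 in null mice at 28 °C (SD, n = 5 and 6). In wild-type mice it averaged 4.05 ± 0.38 at 5 °C and 4.74 ± 0.79 at 28 °C, and the averaged difference was −0.63 ± 0.26 (SE, limma adjusted p = 0.0860). Without null mouse 3 at 5 °C it passed at an adjusted p of 0.0362, and Cd27 at 0.0249. Without wild-type mouse 4 at 28 °C, Bcl11b alone passed at 0.0386. Cd2, an adhesion receptor, had −0.60 ± 0.28 (adjusted p = 0.140) and Lat, a T cell receptor adaptor, −0.71 ± 0.34 (adjusted p = 0.143), both SE.

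The 11 B cell genes had a median averaged difference of −0.68 and a median SE of 0.53, and the 14 T cell genes −0.58 and 0.35, which were not tested against each other. The averaged difference was −0.74 ± 0.63 for Cd79a (SE, limma adjusted p = 0.458), −0.83 ± 0.62 for Ms4a1 (adjusted p = 0.384) and −0.86 ± 0.57 for Fcer2a, the low-affinity IgE receptor (adjusted p = 0.315). Of the shared genes, Ltb had −0.83 ± 0.48 (adjusted p = 0.245), Ikzf3, the factor Aiolos, −0.79 ± 0.48 (adjusted p = 0.268) and Il7r −0.71 ± 0.55 (adjusted p = 0.399). The smallest differences belonged to T cell genes, at −0.25 ± 0.28 for Zap70 (adjusted p = 0.570) and −0.31 ± 0.35 for Cd3d (adjusted p = 0.586).

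Among the remaining members, the averaged cold difference was −0.68 ± 0.53 for Cd79b, −0.75 ± 0.62 for Cr2, −0.76 ± 0.57 for Cd22 and −0.48 ± 0.42 for Pax5 (SE). For Blk, Fcrla, Spib and Pou2af1 it was −0.47, −0.48, −0.68 and −0.48. Of the T cell genes, Cd3e had −0.87 ± 0.51 (limma adjusted p = 0.245), Cd3g −0.76 ± 0.47, Cd4 −0.57 ± 0.53, Cd8a −0.56 ± 0.44 and Cd8b1 −0.76 ± 0.43 (SE). For Cd5, Cd6 and Cd28 it was −0.49, −0.41 and −0.35. None of these passed limma's test.

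In null mice the differences of 5 °C minus 28 °C ran between −1.07, for Ms4a1, and −0.28, for Zap70, with a median of −0.69, and 0 of 28 passed limma's test at an adjusted or an unadjusted p under 0.05, against 13.2% and 24.2% of all genes. In wild-type mice they ran between −1.04, for Cd27, and −0.23, for Zap70, with a median of −0.59, and again 0 of 28 passed at either, against 16.7% and 28.3%. The smallest adjusted p was 0.388 in null mice, for Ikzf3 (−1.04 ± 0.68 SE), and 0.202 in wild-type mice, for Cd27 (−1.04 ± 0.53 SE). Other members among the 3 smallest p or the 3 largest differences were Cd27 (−0.81 ± 0.53), Cd2 (−0.61 ± 0.40) and Cd3g (0.499-fold, 5 °C over 28 °C, SE 0.66 log2 units) in null mice, and Bcl11b (−0.70 ± 0.37), Lat (−0.74 ± 0.48), Fcer2a (−0.87 ± 0.81) and Cd8b1 (−0.80 ± 0.61) in wild-type mice. The median 95% interval reached 1.30 log2 units to either side. That width is not a detection limit, and the adjusted threshold is stricter. A change of that size or larger in a single gene could thus be missed in 1 genotype. For Cd79a the interval was −2.71 to 1.01 in null mice and −2.49 to 1.24 in wild-type mice.

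Single pads set the size of these medians. Over the fits that left out 1 array, the median of the 28 genes was between −0.85 and −0.49 for the averaged difference. In null mice it was −1.03 without mouse 3 at 5 °C, and −0.31 without mouse 1 at 28 °C. In wild-type mice it was −0.86 without mouse 4 at 28 °C, and −0.21 without mouse 3 at 28 °C. The pads whose removal moved the median most toward 0 were thus the 2 with the highest lymphocyte signal.

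**Figure D4:**
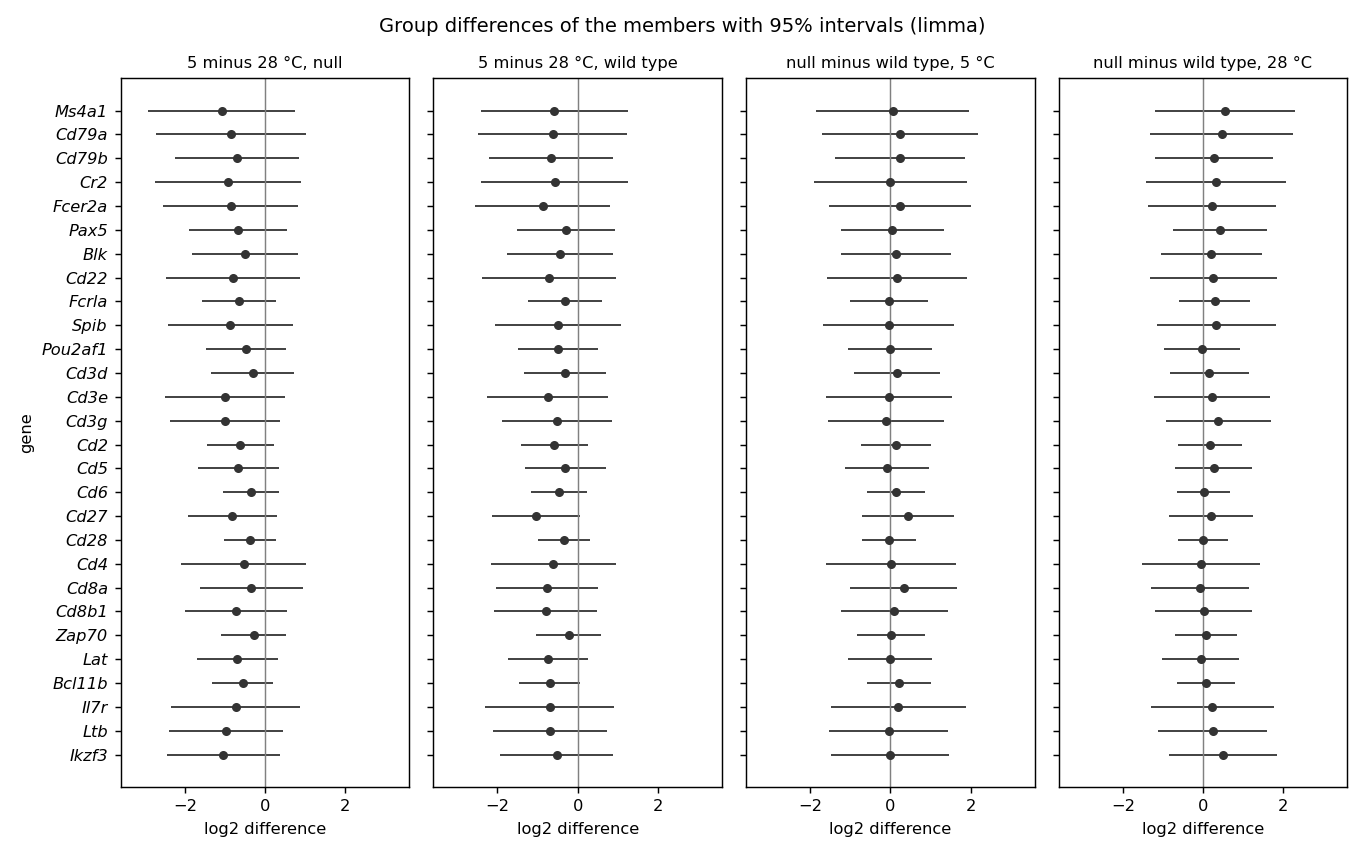
Log2 differences of the 28 genes for the effect of cold in each genotype and for null minus wild type at each temperature, with 95% intervals from limma. Cold differences lie below 0 and genotype differences lie around 0, and the intervals of all 28 genes span 0 in each of these 4 comparisons.

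Genotype differences had medians nearer 0. At 5 °C the difference of null minus wild type had a median of 0.053 over the 28 genes, between −0.11 for Cd3g and 0.43 for Cd27, with 17 above 0, and none passed limma's test at an adjusted or an unadjusted p under 0.05, against 0.149% and 6.65% of all genes. At 28 °C the median was 0.22, between −0.084 for Cd8a and 0.54 for Ms4a1, with 24 above 0, and none passed at either, against 0.194% and 6.74%. The members with the smallest p or largest difference at 5 °C were Cd27, Cd8a (0.33 ± 0.64), Cd79b (0.25 ± 0.78) and Bcl11b (0.21 ± 0.38), and at 28 °C Ms4a1, Ikzf3 (0.50 ± 0.65), Cd79a (0.47 ± 0.86), Pax5 (0.42 ± 0.56) and Fcrla (0.29 ± 0.43), all with SE. In each case the error exceeded the difference. Without null mouse 3 at 5 °C the median at 5 °C was −0.28, and without null mouse 5 at 5 °C it was 0.31. The median 95% interval reached 1.36 to either side at 5 °C and 1.24 at 28 °C. Without null mouse 1 at 28 °C the median at 28 °C was −0.16, and without wild-type mouse 3 at 28 °C it was 0.54, so that single pads set the sign at both temperatures.

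The cold difference was also compared between the genotypes. Null minus wild type, it had a median of −0.043 over the 28 genes, with 9 above 0 and 19 below, and ran between −0.51 for Ikzf3 and 0.42 for Cd8a. No member passed limma's test at an adjusted or an unadjusted p under 0.05. Of all genes 0% were called, and 5.13% had an unadjusted p under 0.05. The median interval reached 1.84 to either side. Without null mouse 3 at 5 °C the median of the 28 genes was −0.46, and without null mouse 1 at 28 °C it was 0.30, so that single pads set its sign. Cd3g had −0.49 ± 0.94, Ms4a1 −0.48 ± 1.25 and Cd5 −0.36 ± 0.68 (SE, limma adjusted p = 0.999 for each). Over the fits that left out 1 array, the difference ran between −0.94 and −0.044 for Ikzf3, −0.93 and −0.072 for Cd3g, −1.03 and −0.013 for Ms4a1, and −0.67 and −0.0019 for Cd5. The lower end was without null mouse 3 at 5 °C in each case, and the upper end was without null mouse 5 at 5 °C for Ikzf3 and Ms4a1, null mouse 1 at 5 °C for Cd3g and null mouse 1 at 28 °C for Cd5. For Cd8a, the cold difference was −0.35 in null mice and −0.77 in wild-type mice, and the 95% interval of null minus wild type for this gene was −1.40 to 2.23.

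Genes shared by all leukocytes, and macrophage genes, were read in the same pads. Of 13 genes of all leukocytes, 10 fell with cold averaged over genotypes, against 13.1% of all genes called lower and 24.8% in either direction. The 13 had a median difference of −0.69 and a median residual SD of 0.534. All 13 differences were below 0. Cd48, a receptor on most leukocytes, had −0.74 ± 0.14 (SE, limma adjusted p = 0.000331) and Ptprc −0.83 ± 0.28 (adjusted p = 0.0359). Laptm5, Was and Cd53 had −0.65 ± 0.14, −0.63 ± 0.15 and −0.77 ± 0.18. Of 11 macrophage genes, all 11 fell, against the same 13.1% of all genes. Their median was −0.64 and their median residual SD 0.153, and for Csf1r the difference was −0.59 ± 0.060 (adjusted p = 1.27e-07). C1qb, C1qc, Mrc1 and Lyz2 had −0.67, −0.60, −0.67 and −0.66. The medians of these lists were close to the −0.68 of the 28 lymphocyte genes, whose median residual SD was 1.12. After group means were subtracted, the leukocyte genes had a median r of 0.889 with Cd79a, between 0.828 and 0.952. They thus followed the same pads and are not a separate reading. The macrophage genes had a median r of −0.16, between −0.62 and 0.57. These lists were compiled with earlier results of these data known.

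**Figure D5:**
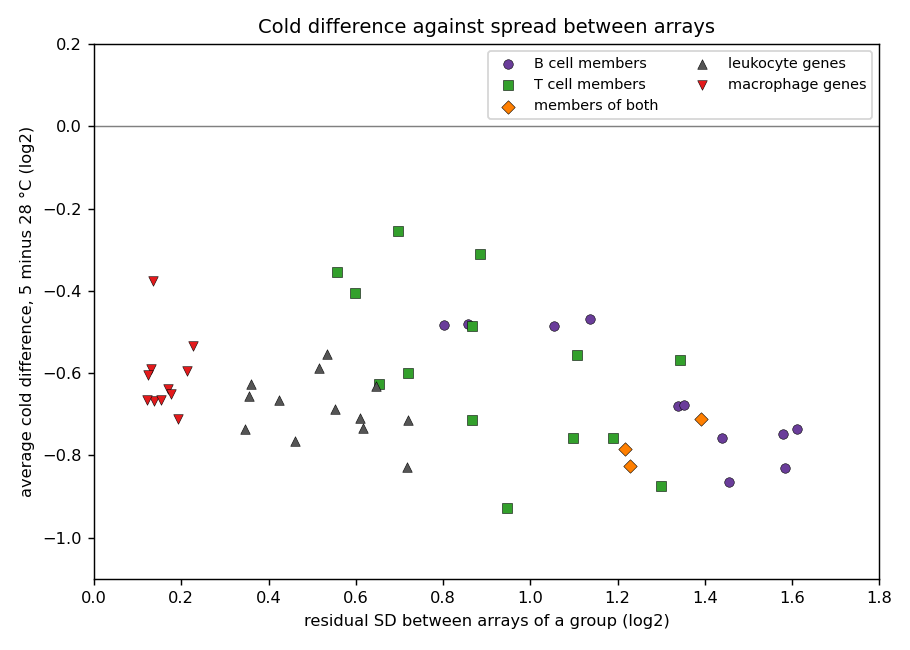
Cold difference averaged over genotypes (vertical axis, log2 units) against residual SD within groups (horizontal axis, log2 units) for B cell, T cell and shared lymphocyte genes, leukocyte genes and macrophage genes. The lists overlap in the cold difference, with medians of −0.68, −0.69 and −0.64 for the 28 members, leukocyte and macrophage genes, and the lymphocyte genes lie at the larger residual SD.

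Further lymphocyte genes outside the 30 were read from wider lists. For each list the share over all genes is the one above, 13.1% lower and 24.8% in either direction. Of 14 other B cell genes, 5 fell with cold averaged over genotypes, with a median over the list of −0.61. These were Btk, a B cell receptor kinase also present in macrophages (−0.82 ± 0.19 SE, limma adjusted p = 0.00231), Ebf1, a B cell factor also present in adipocytes (−0.26 ± 0.047, adjusted p = 0.000172), Cd83 (−0.51 ± 0.13), Cd180 (−0.80 ± 0.23) and Bank1 (−0.91 ± 0.33, adjusted p = 0.0470). Of 20 other T cell genes, none passed limma's adjusted test and 1 had an unadjusted p under 0.05, with a median of −0.26. That gene was Trat1, a T cell receptor adaptor (−0.55 ± 0.21, adjusted p = 0.0640). Il2rb, Sh2d1a and Lef1 had −0.34 ± 0.17, −0.26 ± 0.14 and −0.68 ± 0.40. Of 7 homing genes, Klf2 (−0.35 ± 0.071) and Itga4 (−0.65 ± 0.19) fell, while Itgb7 had −0.34 ± 0.17, Itgal −0.52 ± 0.27 and Ccr7 had −0.35 ± 0.36 (adjusted p = 0.550). After group means were subtracted, 8 of the 14 other B cell genes had r of at least 0.9 with Cd79a, with a lowest r of 0.083. Of the 20 other T cell genes 3 did, with a lowest r of −0.38. Ighm, among the other B cell genes, was highest in wild-type mouse 2 at 5 °C, where the 28 genes were low. Not every gene of these lists thus followed the same pads.

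Against the same 13.1% of all genes that were called lower, 5 of the 11 node stroma genes fell, namely Pdpn (−0.47 ± 0.087 SE), Fst (−0.55 ± 0.11), Clu (−0.75 ± 0.18), Mfge8 (−0.36 ± 0.093) and Cxcl13, the last by 0.75 log2 units (limma adjusted p = 0.0130). The 4 genes with a difference above 0 were Chst4 (0.24), Ltbr (0.077), Tnfsf11 (0.033) and Madcam1 (0.0047). Several of the genes that fell, Clu and Mfge8 among them, are also made by other cells of fat. Glycam1, whose pattern followed the B cell genes most closely in that list, had −0.23 ± 0.63 (SE, adjusted p = 0.844). Of 7 plasma cell genes, Xbp1 (−0.40 ± 0.081) and Tnfrsf17 (−0.56 ± 0.13) fell, Sdc1 and Mzb1 had −0.21 ± 0.080 and −0.35 ± 0.22, Derl3 and Prdm1 had 0.090 and 0.0094, and Jchain, the joining chain of secreted antibodies, had −0.39 ± 0.42 (adjusted p = 0.566). Jchain was highest in wild-type mouse 2 at 5 °C, a pad where the 28 genes were low. Plasma cell genes had a median r of −0.14 with Cd79a after group means were subtracted, and natural killer and innate lymphoid genes 0.17. Of 9 natural killer and innate lymphoid genes, Gzma, a granule protease, fell by 0.34 log2 units (limma adjusted p = 0.0244), Klrd1 and Klrk1 had −0.46 ± 0.19 and −0.32 ± 0.14, and Gzmb, Eomes and Klrb1c had 0.29, 0.059 and 0.031. Of 4 germinal centre genes, Mki67, a marker of dividing cells of any type, rose by 0.44 log2 units (adjusted p = 0.0381) and Fas fell by 0.28 (adjusted p = 0.000338), while S1pr2 and Bcl6 had −0.14 ± 0.085 and 0.21 ± 0.26.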

How the data were processed

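RNA of inguinal fat, 100 ng with an integrity number above 8, was hybridised to 1 array per mouse, per the labels. The authors deposited log2 values per probe set made with RMA, per the labels and the submitters' processing notes. Neither the version of RMA nor the annotation build is stated in the sources used here. No normalization was added to the 41345 probe sets. In the annotation used here 23521 had 1 gene symbol, 1814 several and 16010 none, and the brightest probe set stood for each of 22180 genes. There is no read depth on arrays, and precision is limited by how many there are and by dim signal.

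All genes were fitted in limma 3.58.1 (R 4.3.3) with the 4 groups in 1 model (18 residual and 3.35 prior degrees of freedom). Calls were made at p under 0.05 after Benjamini-Hochberg adjustment across the 22180 genes, and the fit was tested on simulated data. The averaged cold difference is the mean of both genotypes' differences. Residual SDs come from the same model. Correlations used scipy 1.17.1 with 100000 permutations. Genes named were the members, with group values for 12 of them, in each comparison the 3 with the smallest p and the 3 with the largest difference, and of other lists up to 4 with the smallest p and those against the list's direction. Further genes were chosen after their values were seen. The members and lists were chosen with earlier results of these data known. Alternatives covered scaling, filters on dim genes, thresholds, a replicate block and leaving out each array.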

Additional observations from a re-analysis of the deposited data

Results flagged for a closer look

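Of 112 sets of values (28 genes in 4 groups), 1 held an array set apart from the rest by Dixon's criterion: Cd3d in null mice at 28 °C, where mouse 1 read 6.32 on the log2 scale, the next highest 4.18 and the lowest 3.62. The gap was 0.794 of the range, against a critical value of 0.625 for 6 samples. Chance alone gives a gap past the critical value in about 1 in 20 groups, and 112 were examined here. The same mouse had the highest value of 27 of the 28 lymphocyte genes.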

How the results depend on the processing

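With other scalings, filters and thresholds, 439 values kept their direction and side of the threshold. The count of lymphocyte genes called for the averaged cold difference, 0, became 1 (Cd27) with the dimmest 50% of genes left out, when 19 of the 28 were tested, and 2 (Cd27 and Bcl11b) at an adjusted p under 0.1, and was 0 to 2 without single arrays. The leukocyte genes called as lower, 10, became 5 at an unadjusted p under 0.001 and were 5 to 13 without single arrays, with 5 or 6 without null mice 1, 2 or 5 at 5 °C, wild-type mice 2 or 3 at 5 °C, or wild-type mouse 3 at 28 °C. The correlation of Cd79b with Adipoq reversed to −0.025 with array medians subtracted, and the cause was not tested. Without single arrays the null minus wild-type difference at 5 °C ran between −0.024 and 0.35 for Bcl11b, −0.042 and 0.58 for Cd8a, and −0.091 and 0.60 for Cd79b, and at 28 °C between −0.00077 and 0.55 for Fcrla, and −0.0054 and 0.89 for Cd79a. Same-numbered arrays of different groups had deviations that correlated at −0.25 to 0.35 (median −0.043, 5 of 30 pairs over 0.1). Arrays with different numbers were not compared, so whether the number marks a pairing was not tested. With the replicate number as a block, 0 of the 28 were called in each of the 6 comparisons, and the median cold difference was −0.88 in null mice, −0.80 in wild-type mice and −0.86 averaged. Values from probe sets with several symbols could not be had, since none names a member. Dim signal limits Cd3d, Spib and Cr2 most.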
